A study of Homo sapiens with 20 samples.

Results

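The response to tetracycline (tet) withdrawal without EVI1 was read in P2, a single clone carrying the empty vector (U937T_vec), and in the parental line U937T. All 4 arrays of these lines at 48 h were used, out of 20 in the series: 1 with and 1 without tet for each line, paired by line. U937 is a human leukemia line of monocytic type, and in its derivative U937T a tet-repressed transactivator switches on genes placed behind its target promoter once tet is removed. Both lines grew in medium with 10% fetal bovine serum and 0.5 µg/ml puromycin, and P2 additionally in 500 µg/ml hygromycin. Cells were washed 3 times in PBS and returned to medium with 1 µg/ml tet or without it, so that the washing was common to both cultures. The EVI1-HA clones E10 and E14, which express EVI1 from the tet-repressed promoter, went through the same change of medium (6, 12, 24 and 48 h, 16 arrays) and were used to estimate the spread and as a comparison. Both clones grew with 0.5 µg/ml puromycin and 500 µg/ml hygromycin, as P2 did. No control array at an earlier time than 48 h was used here, and no line had a second culture per condition, so that P2 and U937T stand as the 2 replicates. The spread behind the p-values came mostly from the arrays of E10 and E14 and only in small part from the gap between P2 and U937T. The loss of the drug and the release of the transactivator happened together in both lines and cannot be told apart.

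Monocytic cells mature by gaining surface integrins, Fc and complement receptors with their signaling adaptors, the subunits of the phagocyte NADPH oxidase and the calcium-binding S100 proteins, while proteases of the primary granules, MYC and the machinery that builds ribosomes are typical of the proliferating precursor. The transcription factor PU.1 is a main activator of myeloid genes and binds purine-rich sites around GAGGAA, and MYC binds with MAX to the E-box CACGTG. Tet itself is an antibiotic that blocks bacterial ribosomes, can also slow translation on the related ribosomes of mitochondria, and binds divalent metal ions. Gene lists for these processes were therefore examined next to one another.

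Values are log2 intensities of the deposited Robust Multi-array Analysis (RMA), and a change is the log2 value without tet minus that with tet, so that 1 is a 2-fold difference. Of 17860 genes tested with limma, those with a Benjamini-Hochberg adjusted p under 0.05 are called and described as having risen or fallen. MECOM, the gene that encodes EVI1, was not called in the control lines. It measured 6.90 with and 5.91 without tet in P2 and 6.48 and 6.53 in U937T. The mean change of MECOM over these 2 lines was -0.47 ± 0.21 (limma adjusted p = 0.18), whereas it changed by 3.10 in the EVI1 clones. Here and below, ± gives the SE from the limma fit to all arrays, whose spread came mostly from E10 and E14. This SE does not measure the gap between P2 and U937T, which can be wider. The change of MECOM was -0.99 in P2 and 0.05 in U937T. Its other probe sets had mean levels of 2.59 to 3.38, near the lower end of the scale, and changed by -0.08 to 0.24. The lines carried the markers of their type, with CD4 between 10.01 and 10.36, CSF3R between 9.23 and 9.46 and CEBPA between 11.43 and 11.66 in the 4 arrays, but MPO, a granule enzyme of myeloid precursors, only reached 4.87 to 5.09. Median levels of the lists for other lineages (lymphoid, erythroid and megakaryocytic, epithelial and stromal) lay between 4.99 and 6.19, against 9.73 to 10.27 for the 18 myelomonocytic markers, and RMA has no true 0. The difference between the 3′ and 5′ control probe sets of actin and GAPDH, a measure of RNA integrity, went from 0.837 to 0.987 in P2 and in U937T from 1.06 to 0.735, in opposite directions.

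After 48 h without tet, 966 genes had risen (5.41% of those tested) and 947 had fallen (5.30%), each of them in the same direction in P2 and in U937T. These shares are the background for the list counts below. Rises were the larger: 125 called genes rose at least 2-fold and 8 fell at least 2-fold, and 78 and 4 of these did so in each line separately. Over all genes the median change was -0.02. When the 4 control arrays were fitted on their own, with the line as block and 1 residual degree of freedom, 400 genes were higher (2.24%) and 199 lower (1.11%), of which 389 and 188 were also called with all arrays. The spread used for the calls above thus came mostly from the EVI1 clones. The gap between the responses of E10 and E14 had a median absolute deviation of 0.196 to 0.316 over the 4 times. At 48 h it was 0.207, against 0.320 between P2 and U937T, so that the adjusted p may be too small for the control lines. Across genes the changes of P2 and U937T had a Pearson r of 0.464 and a Spearman rho of 0.293, which describes genes that are not independent of each other. Leaving out P2 or U937T, which leaves the other line alone, ended the call of none of the 15 largest rises. In RNA from whole cultures, a higher level per cell and a larger share of cells with that level cannot be told apart.

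**Figure D1:**
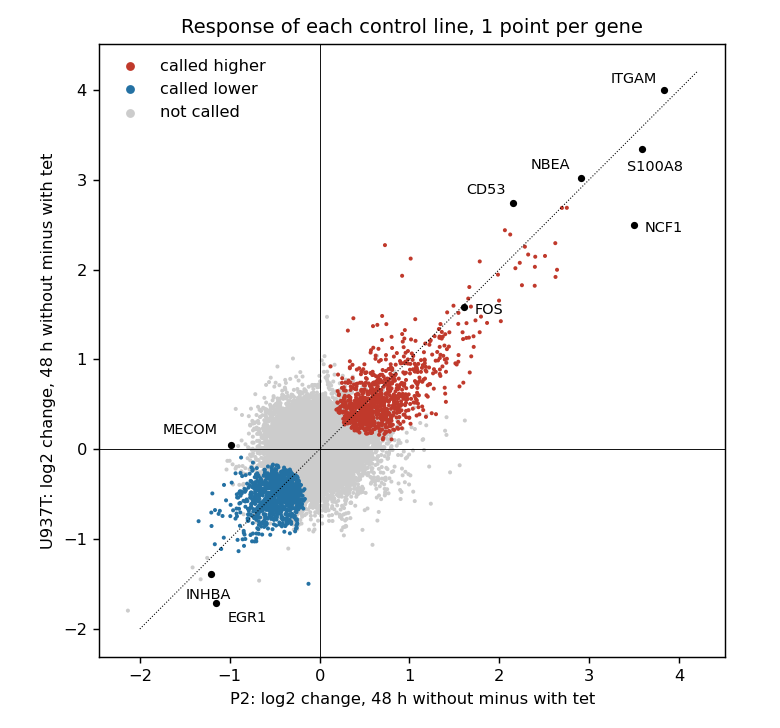
Change of each gene 48 h after tet withdrawal in P2 (x axis) and in U937T (y axis), both as log2 without minus with tet, with 1 point per gene; red and blue points are the 966 and 947 called genes, grey points the rest, and the dotted line marks equal change. ITGAM and S100A8 lie farthest up the diagonal, called genes occupy the quadrants where both lines moved the same way, and MECOM lies left of the origin through P2.

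The 15 largest rises included 8 members of the lists examined, among them ITGAM, S100A8, S100A9, NCF1 and CD36. ITGAM, which encodes the alpha M integrin chain CD11b of complement receptor 3, measured 5.54 with and 9.37 without tet in P2, and 5.58 and 9.58 in U937T. This was the largest change of all genes tested, 3.92 ± 0.15 (limma adjusted p = 5.5e-09), and both arrays without tet lay well above both with tet. A dimmer second ITGAM probe set with a mean level of 5.35 changed by -0.31 in P2 and 0.38 in U937T. S100A8, a subunit of the calcium-binding protein calprotectin, went from 6.78 to 10.36 in P2 and in U937T from 7.09 to 10.43 (3.46 ± 0.18, limma adjusted p = 7.2e-08). Its partner S100A9 went from 8.21 to 10.33 and from 8.41 to 10.80 (2.26 ± 0.15, limma adjusted p = 5.9e-07). In both genes the 2 arrays without tet lay above the 2 arrays with tet, with no overlap.

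Of the chains of the beta-2 integrins, ITGAM, ITGAL and ITGB2 rose, and ITGAX changed by 0.28 and ITGAD by 0.39 and were not called. ITGAL, the alpha L chain of LFA-1, measured 6.14 and 8.76 in P2 and 5.80 and 8.10 in U937T with and without tet, a change of 2.46 ± 0.20 (limma adjusted p = 7.9e-06). The beta chain they share, ITGB2, was already at 11.08 and 11.30 with tet and reached 12.12 and 12.19 without it (0.96 ± 0.12, limma adjusted p = 0.00023). ITGB2-AS1, a transcript annotated opposite to ITGB2, rose by 2.33 ± 0.17 (limma adjusted p = 1.4e-06), and whether its probes and those of ITGB2 read separate strands was not tested. A dimmer ITGB2-AS1 probe set with a mean level of 5.15 changed by 0.64. Among 21 tested integrin and adhesion genes 8 rose and 3 fell, with a median change of 0.36; CD52, a lymphocyte and monocyte surface glycoprotein, rose by 1.07, whereas ICAM2, ITGB7 and ITGA4, all cell adhesion molecules, fell by 0.49, 0.46 and 0.39. On the 4 control arrays alone 4 of these rises and none of the falls were called.

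Receptors and their adaptors formed the second group. TYROBP (DAP12) and FCER1G (the Fc receptor gamma chain) are transmembrane adaptors that carry the activation motifs for many myeloid receptors. TYROBP measured 5.92 and 8.55 in P2 and 6.05 and 7.97 in U937T (2.27 ± 0.16, limma adjusted p = 1.2e-06), and FCER1G 8.33 and 10.73 in P2 and 8.49 and 10.63 in U937T (2.27 ± 0.19, limma adjusted p = 7.9e-06). C5AR1, the receptor for the complement fragment C5a, went from 6.03 to 8.21 and from 6.27 to 8.28 (2.10 ± 0.26, limma adjusted p = 0.00022). CFP, the complement activator properdin, rose by 1.96 ± 0.09 (limma adjusted p = 3e-08), and LILRA2, an activating receptor of the immunoglobulin-like family, by 1.20. Of 20 tested members of this list 10 rose and none fell, and 8 of them were called on the control arrays alone. FCGR2A, an activating low-affinity IgG receptor, rose by 0.71 ± 0.11 (limma adjusted p = 0.0013), and 0.06 without P2, while FCGR1A, the high-affinity receptor, changed by 0.23 and was not called.

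The oxidase that makes superoxide in phagocytes moved in 4 of its 5 tested genes. NCF1, the cytosolic organizer p47phox, went from 5.57 to 9.07 in P2 and in U937T from 6.52 to 9.02 (3.00 ± 0.17, limma adjusted p = 1.5e-07). Its 2 lines started apart with tet and ended together without it. The NCF1 probe set may also read the near-identical pseudogenes of this locus, so that the source of its signal is uncertain. NCF4 rose by 0.75, the membrane subunit CYBA by 0.64 and the GTPase RAC2 by 0.54, with limma adjusted p = 0.00083, 0.0078 and 0.0029. A dimmer CYBA probe set with a mean level of 7.04 changed by -0.12. RAC2 was not called on the control arrays alone (limma adjusted p = 0.076), and CYBA was not called without P2 or without U937T (0.059 and 0.13). CYBB, the catalytic subunit, changed by 0.29 and was not called.

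Other large rises had varied roles. NBEA, a scaffold protein of membrane traffic, went from 5.14 to 8.05 in P2 and in U937T from 5.12 to 8.13. LGALS1, which encodes the sugar-binding galectin-1, went from 9.62 to 12.37 and from 9.62 to 12.31. CD36, a scavenger receptor for lipids, went from 5.27 to 7.96 and from 5.21 to 7.89. For these 3 genes the lines were nearly superimposable, and the changes were 2.96 ± 0.13, 2.72 ± 0.15 and 2.69 ± 0.24 (limma adjusted p = 2.4e-08, 1.5e-07 and 1.6e-05). CD53, a leukocyte tetraspanin, rose by 2.45, RAB27B, a GTPase of granule secretion, by 2.32, HK3, the hexokinase of myeloid cells, by 2.27, and VIM, the intermediate filament vimentin, by 2.25. Of the 4 other probe sets of CD36, those with mean levels of 6.64 and 5.46 changed by 2.77 and 2.55, and those with mean levels of 3.71 and 3.25 by 0.57 and 0.02. The other probe sets of CD53 (mean levels 4.96 and 3.78) changed by 0.33 and -0.12, and one of RAB27B with a mean level of 4.35 changed by -0.05.

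**Figure D2:**
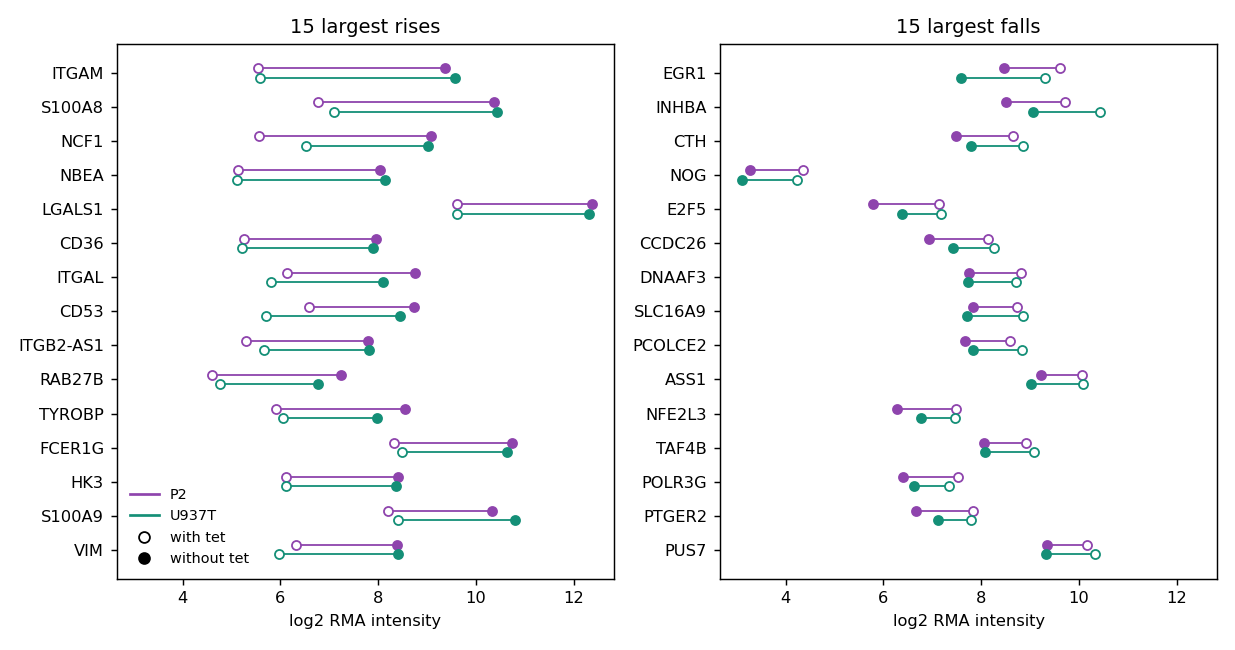
log2 RMA intensity of the 15 genes with the largest called rise (left) and the 15 with the largest called fall (right), for P2 (purple) and U937T (green), with tet (open circles) and without tet (filled circles), 1 array per circle. Rises span 2.25 to 3.92 and falls 0.91 to 1.43 on the log2 scale, and only genes in which both lines moved the same way were eligible.

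The 250 bases before the annotated start of these genes were taken from RefSeq (GRCh38.p14) and searched for GAGGAA on both strands, since it is the core of many PU.1 sites. Of the 15 largest rises 12 had an entry and 8 of these held the motif (66.7%): ITGAM, S100A8, NCF1, CD36, TYROBP, HK3, S100A9 and VIM. The share was 20.0% (2 of 10) among the 15 largest falls, 60.0% (15 of 25) in the list of monocyte and macrophage maturation, 28.9% of the genes called higher and 21.2% of those called lower, against 23.4% of all genes tested and 23.4% of all RefSeq entries. The genes were looked at because they moved, so that these shares are a description, and a match is not a bound site. The windows of 4 of these 8 genes, TYROBP with 2 matches among them, are shown 5′ to 3′ on the gene's strand, with GAGGAA or its reverse complement TTCCTC in capitals. They lie at chr16:31259725-31259974 (plus strand), chr1:153391189-153391438 (minus strand), chr5:176899347-176899596 (minus strand) and chr19:35908296-35908545 (minus strand).
ITGAM: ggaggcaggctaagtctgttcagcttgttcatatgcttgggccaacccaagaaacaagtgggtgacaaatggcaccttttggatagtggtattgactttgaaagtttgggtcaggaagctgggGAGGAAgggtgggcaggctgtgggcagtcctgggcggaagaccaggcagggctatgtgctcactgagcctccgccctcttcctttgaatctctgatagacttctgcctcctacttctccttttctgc
S100A8: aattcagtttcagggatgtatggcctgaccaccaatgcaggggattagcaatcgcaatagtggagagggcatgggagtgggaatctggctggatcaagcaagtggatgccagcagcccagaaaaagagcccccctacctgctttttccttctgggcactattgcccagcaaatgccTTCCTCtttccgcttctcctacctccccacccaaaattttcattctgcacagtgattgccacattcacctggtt
HK3: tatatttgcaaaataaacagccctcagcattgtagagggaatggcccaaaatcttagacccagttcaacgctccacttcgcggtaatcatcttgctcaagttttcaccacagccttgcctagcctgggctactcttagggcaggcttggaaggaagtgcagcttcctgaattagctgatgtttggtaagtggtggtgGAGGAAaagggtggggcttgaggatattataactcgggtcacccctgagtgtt
TYROBP: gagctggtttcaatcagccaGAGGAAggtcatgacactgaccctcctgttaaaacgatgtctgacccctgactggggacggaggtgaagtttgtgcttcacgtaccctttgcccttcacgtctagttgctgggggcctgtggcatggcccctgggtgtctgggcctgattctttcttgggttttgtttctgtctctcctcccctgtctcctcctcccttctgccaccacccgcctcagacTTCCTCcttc

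The wider list of monocyte and macrophage maturation had 11 members that rose and 1 that fell out of 31 tested, with a median change of 0.28, and 11 rises were called on the control arrays alone, where CTSB was not called (limma adjusted p = 0.13) and CSF1R, the receptor for the growth factor of macrophages, was (0.61, limma adjusted p = 0.047). Besides ITGAM, S100A8, S100A9, CD36, ITGB2 and FCGR2A, they were CHI3L1, a secreted chitinase-like protein, FCN1, a lectin of monocytes, KLF4, a transcription factor that promotes monocyte development, and the lysosomal proteases CTSD and CTSB. CHI3L1 rose from 5.67 to 7.22 in P2 and in U937T from 6.05 to 7.02, while another probe set with a mean level of 7.14 changed by 1.32 and a dimmer one with a mean level of 4.42 by 0.00. The single fall was IRF8, a transcription factor of the monocyte lineage, by 0.48. CD14, CD163, TLR2 and TLR4, which are surface proteins of mature monocytes and macrophages, changed by -0.09, -0.10, 0.00 and -0.03 and were not called. S100 proteins rose in 6 of 16 tested genes, among them S100A4 by 1.47 ± 0.10 (limma adjusted p = 1.1e-06) and S100A6 by 0.50, and none fell. Of 15 target genes of vitamin D and retinoic acid, both inducers of myeloid maturation, only CAMP, which encodes the antimicrobial peptide cathelicidin, rose (0.86), which is close to the background share.

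Primary granule genes pointed the other way in 3 of 16 members. The serine proteases PRTN3, CTSG and ELANE fell by 0.66 ± 0.12, 0.66 ± 0.14 and 0.59 ± 0.12 (limma adjusted p = 0.0034, 0.0082 and 0.0052). PRTN3 measured 12.02 and 11.30 in P2 and 12.07 and 11.46 in U937T. CTSG measured 12.45 and 11.73 in P2 and 12.51 and 11.91 in U937T. Each culture without tet was below each with tet for both genes. Without the line as block none of these 3 genes was called (limma adjusted p = 0.2, 0.31 and 0.071), and ELANE was also not called on the control arrays alone (limma adjusted p = 0.054). No member of this list rose, and its median change was -0.18.

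Of 33 lysosomal genes 9 rose and none fell, with a median change of 0.23. They included the proteases CTSD, CTSS and CTSB, the sialidase NEU1, the growth factor precursor GRN and proton pump subunits. CTSD went from 8.41 to 9.18 in P2 and in U937T from 8.42 to 9.05 (0.71 ± 0.12, limma adjusted p = 0.0019, and 0.061 without P2). On the control arrays alone only CTSD and CTSS of the 9 were called, and CTSS, with an adjusted p of 0.049, lost its call in several settings, such as without the block (limma adjusted p = 0.087). Of 23 genes of HLA and antigen presentation 3 rose, among them the immunoproteasome subunit PSMB9 by 0.67, and TAP2, a peptide transporter, fell by 0.38.

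Interferon-stimulated genes rose in 11 of 37 cases, by less than 2-fold each, and 1 fell. IRF9, the DNA-binding part of the interferon-activated complex ISGF3, went from 6.92 to 7.98 in P2 and in U937T from 6.76 to 7.63 (0.96 ± 0.19, limma adjusted p = 0.0058, and 0.11 without P2). OAS1, an enzyme that senses viral RNA, rose by 0.96, IFIT2, an inhibitor of translation, by 0.92 and IRF7, an activator of interferon genes, by 0.81. MX2, an antiviral GTPase, fell by 0.31, and ISG15 and IFITM3 changed by 0.03 and -0.08 and were not called. The list's median change was 0.25, with 25 of the 37 members higher in both lines against 26.4% of all genes. Leaving out either line lowered the number called, to 3 without P2 and 5 without U937T, and IFIT2 was not called without U937T, where P2 alone gave 0.38 (limma adjusted p = 0.35). TNFSF10, the death ligand TRAIL, went from 4.55 to 5.56 in P2 and in U937T from 4.11 to 6.24 (1.57 ± 0.24, limma adjusted p = 0.001, and 0.051 without U937T). Of 33 cytokine and chemokine genes 3 rose (TNFSF10, TNFSF14 and IL16) and 1 fell: INHBA, the activin A subunit, which is described with the falls, while TNF and IL1B changed by 0.49 and 0.45 and were not called.

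Immediate early genes split. FOS, a subunit of the transcription factor AP-1, went from 4.36 to 5.97 in P2 and in U937T from 4.40 to 5.98 (1.59 ± 0.15, limma adjusted p = 2.1e-05). EGR1, a zinc finger factor that is often induced with FOS, went the opposite way, from 9.61 to 8.46 and from 9.30 to 7.58 (-1.43 ± 0.22, limma adjusted p = 0.0012, and 0.051 without U937T). EGR1 was the largest called fall of all genes. In all, 10 of 28 tested members rose and 3 fell. IER3, KLF2 and the phosphatase DUSP6, which switches off the kinase ERK, rose by 1.08, 1.05 and 1.02, and DUSP2, another MAP kinase phosphatase, fell by 0.76. A dimmer KLF2 probe set with a mean level of 4.67 changed by -0.13.

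Inhibitors of the cell cycle rose in 5 of 19 cases, where 5.41% of all genes tested rose and 5.30% fell. CDKN2D (p19INK4d) went from 5.85 to 7.22 in P2 and in U937T from 6.01 to 7.27, and CDKN1A (p21) from 7.39 to 8.94 and from 7.62 to 8.67. Their changes were 1.31 ± 0.14 and 1.30 ± 0.17 (limma adjusted p = 8e-05 and 0.0004). A dimmer CDKN2D probe set with a mean level of 4.68 changed by -0.03. CDKN1C, CDKN1B and RB1 also rose, by 0.97, 0.43 and 0.55 (CDKN1C had a limma adjusted p of 0.15 without P2 and 0.12 without U937T), and GADD45A, a stress-induced growth arrest gene, fell by 0.48. At the same time 8 of 42 genes of S phase and mitosis rose and 1 fell, with a median change of 0.14. CCNE2, the cyclin E2 of the transition to S phase, rose by 0.99 ± 0.14 (limma adjusted p = 0.00072), the mitotic motor CENPE by 0.64 and the phosphatase CDC25C by 0.60, whereas MCM4, a subunit of the replicative helicase, fell by 0.44. Only 3 of the 8 rises were called on the control arrays alone. Of 15 p53 targets CDKN1A and RRM2B rose and AEN and TRIAP1 fell. In the BCL2 family 3 of 18 tested genes rose and 2 fell. For lists as short as these, the counts of p53 targets and of the BCL2 family lie within a few genes of the background shares. The survival gene BCL2A1 rose by 0.67 and BNIP3L by 0.64, and BCL2A1 lost its call when either control line was left out. BCL2 itself, an inhibitor of apoptosis, fell by 0.64, with 8.88 and 8.43 in P2 and 9.26 and 8.42 in U937T (limma adjusted p = 0.01, and 0.052 on the control arrays alone). HRK fell by 0.59 and was not called on the control arrays alone (limma adjusted p = 0.076).

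Falls were smaller and more evenly spread. INHBA went from 9.71 to 8.51 in P2 and in U937T from 10.44 to 9.06 (-1.30 ± 0.13, limma adjusted p = 3.9e-05), while another probe set with a mean level of 8.73 changed by -1.26 and a dim one with a mean level of 3.75 by -0.09. CTH, the enzyme that makes cysteine from cystathionine, went from 8.65 to 7.49 and from 8.86 to 7.80 (-1.11 ± 0.14, limma adjusted p = 0.00023). NOG, a BMP antagonist near the lower end of the scale, E2F5, an E2F factor, CCDC26, a noncoding transcript, DNAAF3, a dynein assembly factor, and SLC16A9, a transporter of the monocarboxylate family, fell by 1.02 to 1.10. NOG was not called without either control line (limma adjusted p = 0.072 without P2 and 0.061 without U937T), nor was CCDC26 (0.18 and 0.053), and neither was PTGER2, a prostaglandin E2 receptor (-0.92; 0.34 and 0.085). E2F5 and NFE2L3, a bZIP transcription factor that fell by 0.95, were not called without P2 (limma adjusted p = 0.093 and 0.15). MATR3, named after its values were seen, had a larger change than EGR1, -2.13 in P2 and -1.80 in U937T, but was called only on the control arrays alone (limma adjusted p = 4.5e-05, against 0.15 with all arrays).

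MYC and the genes of ribosome assembly moved down together. MYC measured 11.24 and 10.16 in P2 and 11.24 and 10.50 in U937T (-0.91 ± 0.15, limma adjusted p = 0.0016, and 0.07 without P2). MXD1 and MXD3, which compete with MYC for the partner MAX, rose by 0.73 ± 0.10 and 0.58 ± 0.11, and MAX changed by -0.08 and was not called. In ribosome biogenesis 31 of 39 tested genes fell and 0 rose, with a median change of -0.55 (-0.59 in P2 and -0.55 in U937T), and 38 of 39 were lower in both lines against 32.0% of all genes tested. IPO4, an importin that carries ribosomal proteins into the nucleus, went from 8.74 to 7.55 and from 8.53 to 8.04 (limma adjusted p = 0.0072, but -0.49 and 0.24 without P2), NOB1, an endonuclease that trims the small subunit RNA, from 10.01 to 9.21 and from 9.92 to 9.15, and NOP16, a nucleolar protein, from 12.06 to 11.18 and from 11.89 to 11.29. The RNA polymerase I subunits POLR1A, POLR1B and POLR1C fell as well, by 0.72, 0.74 and 0.53, whereas NPM1 (nucleophosmin) changed by -0.03. The number of calls depended on the arrays that set the spread: 13 of the 31 were called on the control arrays alone, 15 without P2 and 17 without U937T.

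Cytosolic ribosomal proteins, the parts that are assembled, had smaller values. None of 31 tested members was called, and their median change was -0.05. In both lines 18 of the 31 were lower and 0 higher, against 32.0% and 26.4% of all genes tested. The genes of highest level were RPS24 (14.20 and 14.25 in P2, 14.24 and 14.22 in U937T) and RPL7 (14.16 and 14.07, 14.14 and 14.13). Intensities this close to the highest value of 14.49 in the data leave little room to see a rise. A dimmer RPS24 probe set with a mean level of 8.65 changed by -0.43 in P2 and -0.61 in U937T. Other RPL7 probe sets, with mean levels of 13.68 and 5.65, changed by -0.07 and -0.42. The E-box CACGTG stood in the 250 bases before 13.5% of the genes called lower (105 of 777 with an entry) and before 6.96% of those called higher (54 of 776), against 8.12% of the genes tested. Among the genes of ribosome biogenesis it stood in 3 of 32 (9.38%). Of the 15 largest falls SLC16A9 and TAF4B, a subunit of the general factor TFIID, carried it out of 10 with an entry, and 0 of the 12 entries among the 15 largest rises did. Both windows are shown with CACGTG in capitals, and in TAF4B also GAGGAA, next to that of CTH, which holds neither. They lie at chr10:59710080-59710329 (minus strand), chr18:26226195-26226444 (plus strand) and chr1:70411018-70411267 (plus strand).
SLC16A9: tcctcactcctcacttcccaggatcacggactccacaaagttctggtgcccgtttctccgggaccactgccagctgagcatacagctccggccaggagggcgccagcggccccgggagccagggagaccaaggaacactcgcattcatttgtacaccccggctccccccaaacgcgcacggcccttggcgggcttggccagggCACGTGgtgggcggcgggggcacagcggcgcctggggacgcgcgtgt
TAF4B: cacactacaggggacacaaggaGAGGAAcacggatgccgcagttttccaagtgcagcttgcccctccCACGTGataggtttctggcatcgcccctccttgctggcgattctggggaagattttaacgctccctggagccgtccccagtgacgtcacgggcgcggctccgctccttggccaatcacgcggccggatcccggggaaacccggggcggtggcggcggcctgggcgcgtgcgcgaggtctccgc
CTH: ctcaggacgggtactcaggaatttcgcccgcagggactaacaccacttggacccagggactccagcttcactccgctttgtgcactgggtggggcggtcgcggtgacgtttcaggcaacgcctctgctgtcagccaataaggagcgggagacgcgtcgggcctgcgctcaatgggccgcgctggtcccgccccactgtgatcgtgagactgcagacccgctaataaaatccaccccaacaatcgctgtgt

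Lists of mitochondrial genes had different counts. None of the 7 transcripts encoded in the mitochondrial genome was called, but 5 of them had mean levels of 13.83 to 14.40, close to the highest value of 14.49, where a change may not be seen. The other 2, MT-CO3 and MT-ND6 with mean levels of 9.20 and 6.94, changed by 0.28 and 0.51, the latter by 1.04 in P2 and -0.01 in U937T. Respiratory chain and ATP synthase subunits encoded in the nucleus were nearly flat as well, with 1 rise and 1 fall out of 66 and a median change of -0.02. Mitochondrial ribosomal proteins, by contrast, fell in 18 of 74 cases and rose in none, with a median of -0.27 and 64 of 74 lower in both lines. MRPS2 measured 9.79 and 9.14 in P2 and 9.81 and 9.21 in U937T (-0.62 ± 0.08, limma adjusted p = 0.00038), and it was the 1 member also called on the control arrays alone. Factors of mitochondrial translation and protein quality control fell in 13 of 33 cases, with a median of -0.30. POLRMT, the mitochondrial RNA polymerase, and TRAP1, the mitochondrial HSP90, each fell by 0.64, LONP1, a matrix protease, by 0.55 and MRRF, a ribosome recycling factor, by 0.50. POLRMT and TRAP1 were the 2 called on the control arrays alone, and POLRMT was not called without P2 or without U937T (limma adjusted p = 0.052 for each).

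Some genes of amino acid supply fell. Of 36 targets of ATF4, the transcription factor of the integrated stress response, 9 fell and 1 rose, with a median of -0.27. ASS1, which makes the precursor of arginine, went from 10.07 to 9.23 in P2 and in U937T from 10.09 to 9.02 (-0.96 ± 0.15, limma adjusted p = 0.0012), and was the only member called on the control arrays alone. The amino acid transporter SLC7A5, asparagine synthetase ASNS, the tryptophanyl-tRNA synthetase WARS1 and ATF4 itself fell by 0.56, 0.49, 0.56 and 0.36. Enzymes of serine, glycine and one-carbon metabolism fell in 6 of 15 cases, of which 2 were called on the control arrays alone: CTH and ALDH1L2, a mitochondrial folate enzyme (7.37 and 6.26 in P2, 7.33 and 6.65 in U937T, -0.90 ± 0.16, limma adjusted p = 0.0025, and 0.1 without P2), while PHGDH and MTHFD2 changed by -0.23 each and were not called.

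Other metabolic lists stayed near the background. None of 19 genes of cholesterol synthesis and uptake was called (median 0.09), and 3 of 28 genes of glycolysis and hypoxia rose and 2 fell, among them the glucose transporter SLC2A3 by 0.79 upward and the hexokinase HK2 by 0.55 downward. Of 22 genes of metal handling STEAP4, a metalloreductase, rose by 1.33 and the zinc exporter SLC30A1 by 0.39. STEAP3, the reductase of transferrin iron uptake, fell from 9.69 to 8.73 in P2 and in U937T from 9.35 to 8.67 (-0.82 ± 0.11, limma adjusted p = 0.00054), and SLC39A14, a zinc and iron importer, fell by 0.65. Of 17 heat shock genes BAG3, a cochaperone, rose by 1.00 and DNAJB4 by 0.58. Of 18 NF-kB targets 2 rose and 1, SOD2, fell (-0.26 in P2 and -0.88 in U937T). On the control arrays alone the 2 rises were called and the fall of SOD2 was not. Of 13 genes of stem and progenitor cells MEIS1 and LMO2 rose and MYB fell, and none of these was called on the control arrays alone.

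Markers of other cell types were read in the same way. Among 17 lymphoid markers NKG7, a granule membrane protein of cytotoxic lymphocytes, rose from 7.30 to 8.37 in P2 and in U937T from 6.90 to 8.11 (1.14 ± 0.12, limma adjusted p = 7e-05). The summed intensity of the list, NKG7 included, lay between 960 and 1079 with and between 1187 and 1188 without tet on the linear scale. Its median log2 level went from 5.39 to 5.23 in P2 and in U937T from 5.09 to 5.26. CD3E, which defines T cells, lay between 5.63 and 6.24 and was not called. Of 10 erythroid and megakaryocyte markers the factor KLF1 fell by 0.59, and the sum went from 934 to 785 in P2 and in U937T from 821 to 885. None of 13 epithelial and fibroblast markers was called, but COL1A1, a collagen chain, depended on the probe set. The brightest gave 8.06 and 7.77 in P2 and 7.95 and 8.05 in U937T. Another with a mean level of 4.24 rose by 2.36 and 2.38, and one with a mean level of 4.72 by 1.29 and 0.77. Those with mean levels of 4.91 and 2.75 changed by -0.03 and -0.11 in P2 and by -0.22 and 0.20 in U937T. The sum of the 18 myelomonocytic markers rose from 31842 to 35974 in P2 and in U937T from 30740 to 38229, and the part of any of these markers in the other results was not tested.

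**Figure D3:**
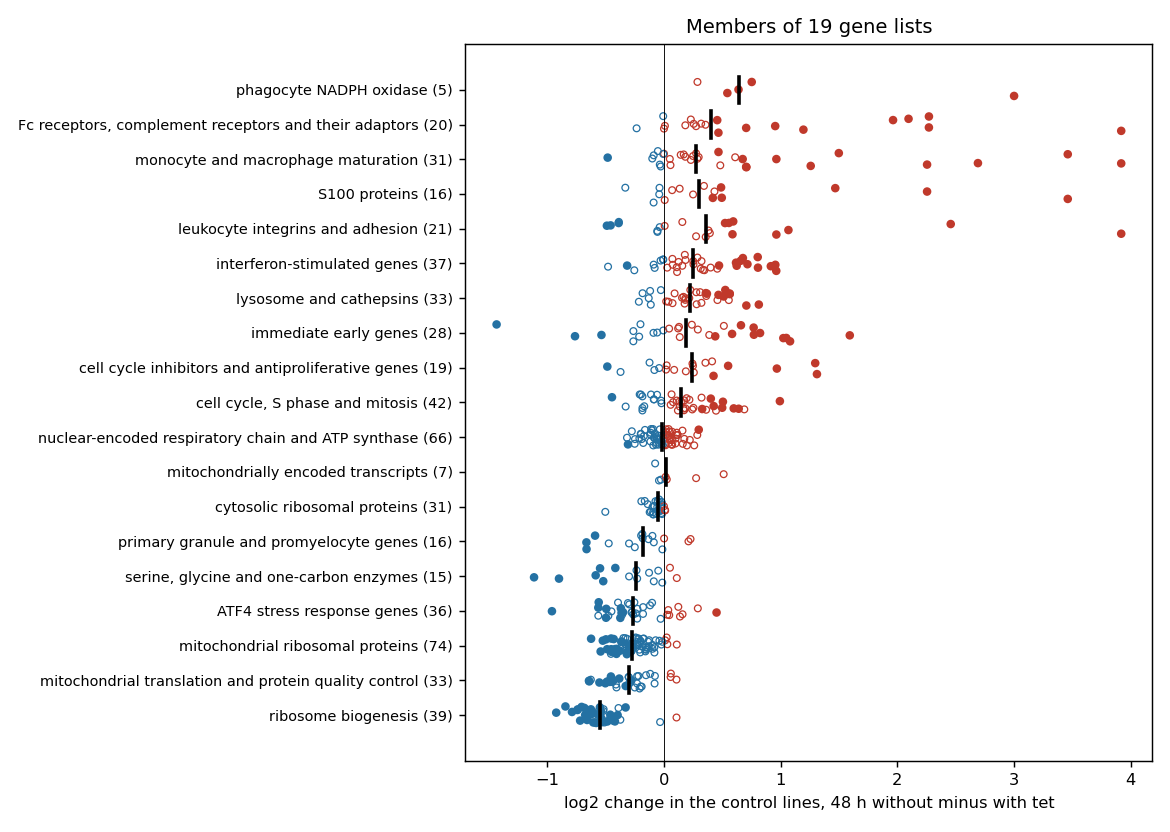
Change in the control lines (log2, mean of P2 and U937T, without minus with tet) for each gene of a list, the brackets giving how many were tested; filled points are called genes, open points the others, red is above and blue below 0, and black bars are medians. Lists of receptors, oxidase subunits and S100 proteins reach 2 to 4 on the right, ribosome biogenesis has its median at -0.55, and cytosolic ribosomal proteins and respiratory chain genes stay around 0.

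P2 and U937T did not differ in response in any gene that passed the test of the difference: 0 of 17860 were called (0% of those tested), with 1755 at an unadjusted p under 0.05 and a smallest limma adjusted p of 0.25. That fit has 7 residual degrees of freedom, all from the EVI1 clones, and 1 array per line and condition, so that only large gaps could pass. Of the called genes 7 had changes that differed between the lines by more than 1 on the log2 scale, and these were picked for that gap. FCN1 rose by 0.73 in P2 and 2.27 in U937T, FPR2, a formyl peptide receptor, by 0.92 and 1.93, TNFSF10 by 1.01 and 2.12, IFIT2 by 0.38 and 1.46, and KDM1B, a histone demethylase, by 0.31 and 1.32. In FCN1, FPR2, TNFSF10, IFIT2 and KDM1B, U937T started below P2 with tet and, except IFIT2, ended above it without. NCF1 rose more in P2 (3.50 against 2.50), and LOC102724587 measured 5.21 and 5.08 in P2 but 5.94 and 4.44 in U937T with and without tet. No gene moved at least 2-fold in opposite directions.

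Since the EVI1 clones lost tet in the same way, their response was set against that of the control lines. The difference between the responses at 48 h was called in 975 genes (5.46%), 541 with the higher and 434 with the lower change in the control lines. Among genes called in the control lines, 607 also differed from the clones. In 577 of these the clones had moved farther in the same direction, as for MYC (-0.91 in the control lines and -3.47 in the clones), CFP (1.96 and 4.34) and CHI3L1 (1.26 and 4.50). The changes of S100A8 (3.46 and 3.02), LGALS1 (2.72 and 3.04), NCF1 (3.00 and 3.60) and EGR1 (-1.43 and -1.27) were not called different (limma adjusted p = 0.41, 0.51, 0.2 and 0.86), which does not show that they were equal.

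In the remaining 30 genes the difference from the clones ran in the direction of the control change, in 20 upward and in 10 downward, and in 25 of them the mean change of the clones had the opposite sign. On the control arrays alone only NMNAT1 of the 10 downward genes was called, and many of the 20 upward genes were not. Some, such as F11-AS1, ZNF473CR and AKAP12, had mean levels of 3.21 to 3.36, near the lower end of the scale. GPR34, a lysophospholipid receptor of myeloid cells, went from 3.55 to 5.87 in P2 and in U937T from 3.24 to 5.40, but measured 3.37 and 3.15 in E10 and 3.24 and 3.13 in E14 (difference 2.41, limma adjusted p = 3e-05), values so near the lower end of the scale that the size of the difference is uncertain. RAB27B rose by 2.32 in the control lines and changed by 0.49 in the clones (difference 1.83, limma adjusted p = 0.001). C5AR1 stood at 6.38 and 6.88 in E10 and at 6.95 and 7.09 in E14, where the control lines rose by 2.10 (difference 1.78, limma adjusted p = 0.011). In all 3 genes both clones without tet stayed below both control lines without tet. LILRA2 and IL18RAP, a subunit of the interleukin 18 receptor, rose by 1.20 and 0.54 in the control lines, with changes of -0.59 and -1.12 in the clones. IL18RAP went from 8.17 to 8.98 in P2 and in U937T from 8.70 to 8.97, and its rise was not called on the control arrays alone (limma adjusted p = 0.12). FCGR2A rose by 0.71 with -0.20 in the clones, FCGR2C, a close paralog whose probes may share signal with it, by 0.66, and GNG2, a G protein gamma subunit, by 1.47 with 0.41 in the clones. NMNAT1, a nuclear enzyme of NAD synthesis, fell by 0.85 in the control lines and changed by 0.28 in the clones. LILRA2, IL18RAP, FCGR2C, GNG2 and NMNAT1 were chosen after their values were seen. Control and clone lines also differ in origin, as E10 and E14 are clones with a different insert, and this cannot be told apart from EVI1. U937T also grew without hygromycin, unlike P2 and the clones, and the part of this drug was not tested.

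**Figure D4:**
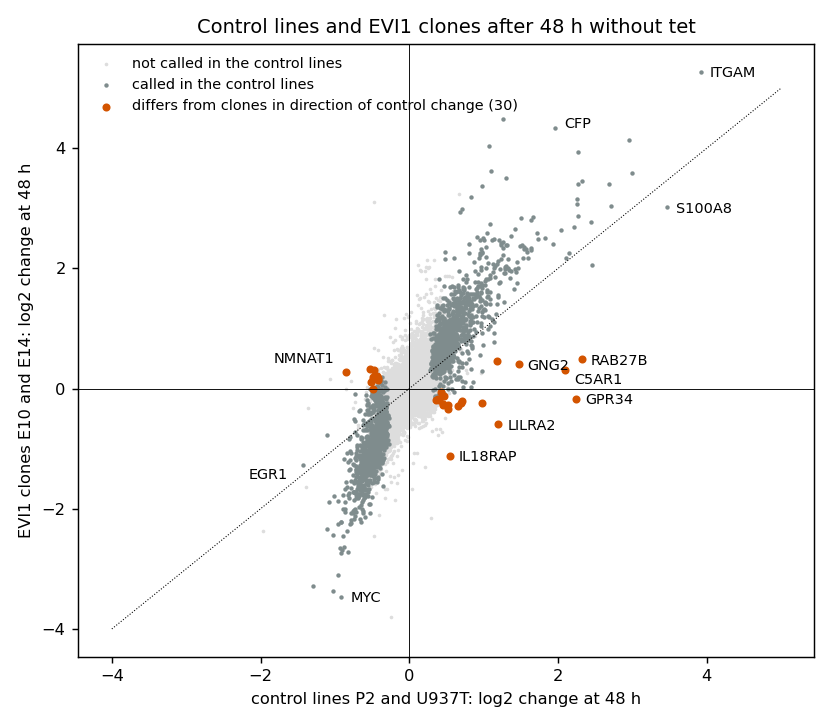
Mean log2 change at 48 h without tet in the control lines P2 and U937T (x axis) and in the EVI1 clones E10 and E14 (y axis), 1 point per gene; dark grey points were called in the control lines, orange points are the 30 genes that differed from the clones in the direction of their control change, and the dotted line marks equal change. Most called genes lie steeper than this line, and GPR34, RAB27B and C5AR1 stand out to the right near 0 on the y axis.

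The clones also supply the only time course. The genes that rose in the control lines at 48 h had a median change of -0.04 at 6 h, 0.05 at 12 h, 0.52 at 24 h and 0.90 at 48 h in the clones, and those that fell had 0.00, -0.13, -0.59 and -0.93, against -0.04 to 0.01 for all genes. Of the 78 genes that rose at least 2-fold in both control lines, 0 had done so in both clones at 6 h, 1 at 12 h, 48 at 24 h and 73 at 48 h. Of all genes tested, 1, 2, 135 and 484 changed that much upward in both clones at these times. These times were read in cells with EVI1, so that they do not give the order of events in the control lines.

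**Figure D5:**
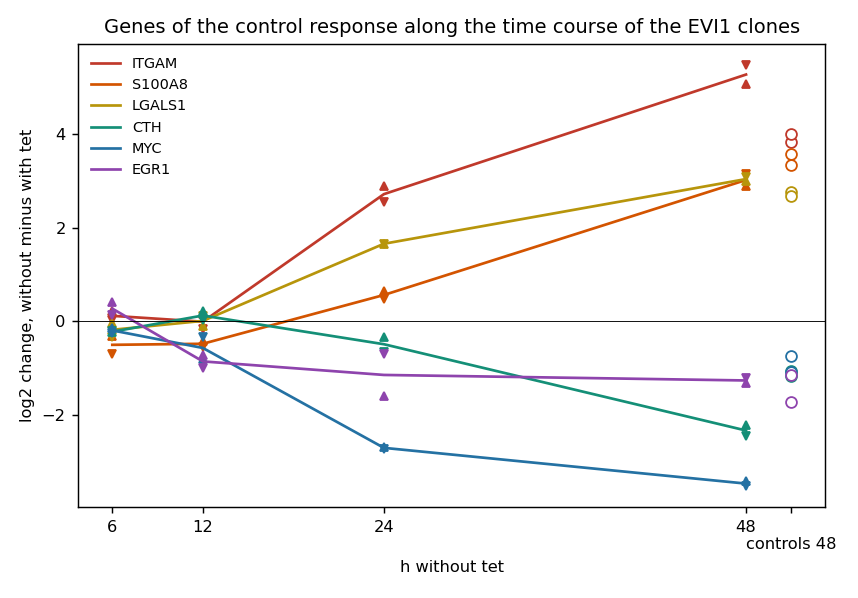
log2 change without minus with tet of 6 genes called in the control lines, followed over 6, 12, 24 and 48 h in E10 (upward triangles) and E14 (downward triangles) with their mean as a line; open circles at the right are P2 and U937T at 48 h. ITGAM and LGALS1 were near 0 at 12 h and had risen at 24 h, and MYC in the clones passed below the control lines by 24 h.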

How the data were processed

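RNA of 20 cultures was hybridized to Affymetrix HG-U133 Plus 2.0 arrays, 4 of them from P2 and U937T. The authors deposited log2 values made by RMA, which corrects background, quantile-normalizes the arrays and summarizes probes by median polish, for 54675 probe sets, and these were used unchanged (array medians 5.25 to 5.35). Probe sets with several gene symbols (1801) or none (11777) were left out, and 41097 had 1 symbol. The published intensity filter (mean log2 of at least 3 in each line, at 48 h and for the clones also at 24 h) was applied, and a gene was read from its brightest probe set, which gave 17860 genes. Dimmer probe sets of S100A8, VIM, CDKN1C, CDC25C, IFIT2, MXD1, E2F5 and POLRMT differed from the brightest in direction or by more than 2-fold in change. The same held for FCGR2A, STEAP4, SLC30A1, SLC39A14, TRAP1 and RPS24. The number of arrays limits the precision.

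limma 3.58.1 (R 4.3.3) was fitted to all 20 arrays in 10 groups with the line as block (8 residual and 5.75 prior degrees of freedom), with Benjamini-Hochberg adjustment over all genes. The scripts were tested on simulated data. The methods of the study name fold criteria and no test. P2 and U937T are paired because each is 1 cell line measured in both cultures. Their level difference had a correlation of -0.21 across genes between cultures, so a crossed pairing was an alternative, next to filters, probe set choice, centring, variance model, block, arrays in the fit, RNA integrity and each line left out. Named were MECOM, the 15 largest called changes in each direction with the same sign in both lines, up to 4 members of each of 36 lists (the called ones of largest change, or the 2 of highest level) and the 5 largest called differences between control lines and clones in each direction among genes called in the control lines. Any others were named after their values were seen. The comparison, lists and named genes were chosen with earlier results of these data known.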

Additional observations from a re-analysis of the deposited data

Results flagged for a closer look

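In 9 genes called in the control lines, the response at 48 h differed from that of the EVI1 clones in the direction of the control change, as called by the test of the difference itself, and by at least 2-fold or in a gene named by rule. For IL18RAP the clones changed farther, by -1.12 against 0.54, and for GPR34 most values lay near the lower end of the scale. The change of the control lines minus that of the clones was 2.41 for GPR34, 1.83 for RAB27B, 1.79 for LILRA2, 1.78 for C5AR1, 1.66 for IL18RAP, 1.21 for TMEM52B, 1.07 for GNG2, 0.91 for FCGR2A and -1.13 for NMNAT1. TMEM52B, a membrane protein, rose by 0.98 in the control lines and changed by -0.24 in the clones.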

How the results depend on the processing

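Of 130 named genes, all kept their direction and call with the 3′ to 5′ difference as covariate, and in the other fits that keep all arrays, the brightest probe sets and no fold minimum at least 118 did so; 89 did with only the 4 control arrays, 73 without P2 and 81 without U937T. COL1A1 turned to 2.37 (limma adjusted p = 5.3e-05) with the probe set of largest SD. That probe set choice gave 566 genes lower in the control lines and 359 with a higher change than in the clones. The 8 arrays at 48 h gave 505 higher and 324 lower, and 196 and 178 for the difference from the clones. The 4 control arrays gave 400 and 199. A 2-fold minimum left 125 and 8, and 122 and 124 for the difference. Leaving out each line gave 317 to 553 higher and 199 to 335 lower (317 and 291 without P2, 553 and 335 without U937T, 400 and 199 without E10 or E14), and 35 to 340 and 30 to 333 for the difference from the clones (340 and 333 without P2, 263 and 176 without U937T, 59 and 48 without E10, 35 and 30 without E14). Without E10 or E14 the clones leave no residual degree of freedom, and the difference between P2 and U937T could not be fitted. The causes of the other shifts were not tested.

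Without the replicate block, 854 genes were higher and 823 lower in the control lines, 487 and 365 for the difference from the clones, and 0 between P2 and U937T; on the 4 control arrays without the block, 448 and 280. The crossed pairing gave 1054 and 1030. The other settings stayed within 1.5 times of the counts given. With 1 array per line and condition, small changes and small gaps between P2 and U937T could not be resolved.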
